A study of Mus musculus with 2 samples.

Results

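The 43 genes described here drive or restrain cell division and DNA replication. They were chosen by symbol, for their known roles, and each symbol matched 1 of the 43346 Ensembl genes in the gene tables. By role they fall into 6 groups: 10 genes of origin licensing and the replicative helicase, 4 of the replication fork and nucleotide supply, 8 cyclins, 4 cyclin-dependent kinases (CDKs), 12 of mitosis, and 5 brakes on division together with the transcription factor E2f1. The RNA came from sigmoid colon tissue, taken from an adult C57BL/6J mouse, female and aged 10 weeks, and polyadenylated transcripts were sequenced. The labels give 2 technical libraries of this 1 animal, numbered here by the technical replicate in the labels, and library 2 was prepared in 2015 per the labels. The labels give 1 group and name no treatment, engineered allele or second mouse, so a spread or a test here covers these technical libraries and says nothing of variation between animals.

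In the colon, division is concentrated in the crypts, where stem cells and their progeny divide before they differentiate and move toward the surface. D-type cyclins with Cdk4 or Cdk6 phosphorylate the retinoblastoma protein Rb1 and free E2F factors, which switch on genes for DNA synthesis; cyclin E and cyclin A with Cdk2 then drive replication, and cyclin B with Cdk1 drives mitosis. CDK inhibitors such as Cdkn1a (p21) and Cdkn1b (p27) hold cells back and are also made by cells that have stopped dividing. The tissue was not sorted, so dividing crypt cells, lymphocytes and other dividing cells contribute to 1 mixture, and fewer dividing cells cannot be told apart from less RNA per dividing cell.

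Library 1 held 25843064 expected counts (reads assigned to genes by a model) and library 2 held 20681574. Genes of the mitochondrial chromosome took 24.1% of the counts and 44.2% of the TPM (a length-corrected level that sums to the same total in each library) of library 1, against 5.59% and 12.6% in library 2. The mitochondrial share is a part of every TPM total, so levels are also given as nuclear TPM, rescaled to the nuclear protein-coding genes alone. The 43 genes together took 0.128% and 0.151% of the counts. All 10 colon epithelium markers were above 0 in both libraries, among them the mucin Muc2 at 2106 and 6464 TPM and the intestinal transcription factor Cdx2 at 11.8 and 70.7 TPM. Slc26a3, at 667 and 587 TPM, and Hoxa13, at 52.5 and 33.9 TPM, went the other way. In the count test described below, 4 of the 10 were called higher and 2 lower in library 2, against 36.9 and 28.1% of all genes. Marker sums of other cells differed between the libraries: 5 smooth muscle genes summed to 273 and 4334 TPM, 5 red blood cell genes to 70.9 and 2803 TPM, 4 macrophage genes to 8.10 and 111 TPM, and 3 endothelial genes to 9.90 and 43.4 TPM. Their part in the differences below was not tested.

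Markers of cells that could hold the dividing fraction were measured beside it. The 6 markers of the crypt base and progenitors summed to 178 and 147 TPM (567 and 194 in nuclear TPM). By the count test described below, 3 were called higher and 3 lower in library 2, against 36.9 and 28.1% of all genes. Most of that sum was Slc12a2, at 144.7 and 83.75 TPM. Lgr5, the receptor that marks crypt base stem cells, was at 5.42 and 4.69 TPM, and the progenitor factor Sox9 was at 20.8 and 19.97 TPM. The markers called higher had more TPM in library 2: Axin2 at 3.51 and 17.1, Myc at 2.51 and 16.3, and Ascl2 at 0.82 and 4.76 TPM. With a GC trend taken off, as described below, 0 of the 6 were called higher and 2 lower, Ascl2 and Sox9, against 12.3 and 11.0% of all genes. For B and plasma cells, 5 markers summed to 423 and 444 TPM, but to 1349 and 590 in nuclear TPM. The 4 T cell markers summed to 2.35 and 8.67 TPM and the 4 fibroblast markers to 541 and 683 TPM (1727 and 907 in nuclear TPM). The sums of B and plasma cell and fibroblast markers thus went opposite ways on these scales. Lymphocyte and crypt markers were thus both present, and their shares of the dividing fraction were not tested.

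Promoters of these genes share short motifs that the choice of genes did not use, and 3 of them are printed to show how the motifs lie. A window from 250 bases before to 50 bases after the RefSeq start was found for 35 of the 43 genes (GRCm38.p6), and both strands were searched. The letters TTTGAA, the core of the CHR element through which the DREAM and MuvB complexes act on mitotic genes, occurred in 12 of the 35 genes (34.3%) and in 20.2% of all 27025 genes with a window. Of the 14 mitotic genes with a window (the mitosis group with Ccna2, Ccnb1, Ccnb2 and Cdk1), 10 held it, against 2 of 12 replication genes. The letters CCAAT, bound by NF-Y, were in 26 of 35 genes (74.3%) and in 41.1% of all genes. At least 1 of 4 E2F-type motifs was found in 10 genes (28.6%), against 4.0% of all genes, namely in 7 of the 12 replication genes and 1 of the 14 mitotic ones. These 4 were TTTGGCGC, then TTTCCCGC, then TTTCGCGC and last TTCCCGCC, and their matches can overlap. A second CHR spelling, TTTAAA, was in 9 genes (25.7%) and in 14.9% of all genes. The sequences below read 5′ to 3′ toward the gene start, all on the minus strand, with matches of TTTGAA and of the E2F-type motifs in capitals and CCAAT left in lower case; TTCAAA is the reverse complement of TTTGAA. They show Top2a, a CHR promoter (chr11:99024190-99024439), Cdk1, which holds both kinds of motif (chr10:69352913-69353062), and Mcm6, an E2F-type promoter (chr1:128359706-128359855), where TTTGGCGC runs into a match on the other strand.
Top2a: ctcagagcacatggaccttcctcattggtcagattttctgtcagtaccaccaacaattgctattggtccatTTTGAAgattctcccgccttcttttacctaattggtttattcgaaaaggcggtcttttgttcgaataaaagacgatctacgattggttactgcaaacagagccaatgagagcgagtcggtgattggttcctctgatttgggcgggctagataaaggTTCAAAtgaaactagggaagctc
Cdk1: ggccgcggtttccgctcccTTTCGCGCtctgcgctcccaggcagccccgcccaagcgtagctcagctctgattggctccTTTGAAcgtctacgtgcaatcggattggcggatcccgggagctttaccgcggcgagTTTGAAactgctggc
Mcm6: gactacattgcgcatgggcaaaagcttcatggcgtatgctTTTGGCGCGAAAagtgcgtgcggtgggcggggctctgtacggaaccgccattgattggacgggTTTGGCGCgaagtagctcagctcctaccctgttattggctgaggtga
In Top2a the letters TTTGAA lie 179 bases before the start and, on the other strand, 23 bases before it. Cdk1 has TTTCGCGC at 131 bases and TTTGAA at 71 and 15 bases before its start. Mcm6 has TTTGGCGC at 110 and 47 bases. A match is a description of the letters, not evidence that a factor binds there.

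Division genes were measured at moderate levels, and the brakes were the most abundant group. The 43 genes summed to 487 TPM in library 1 and 991 TPM in library 2, and in nuclear TPM to 1553 and 1316. In library 1, 12 genes were under 1 TPM, and in library 2, 1 was. The count of genes at 1 TPM or more in both was 31. Their median rank among 21461 nuclear protein-coding genes was at percentile 67.2 in library 1 and 63.7 in library 2, and 20 of 43 ranked higher in library 2.

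**Figure D1:**
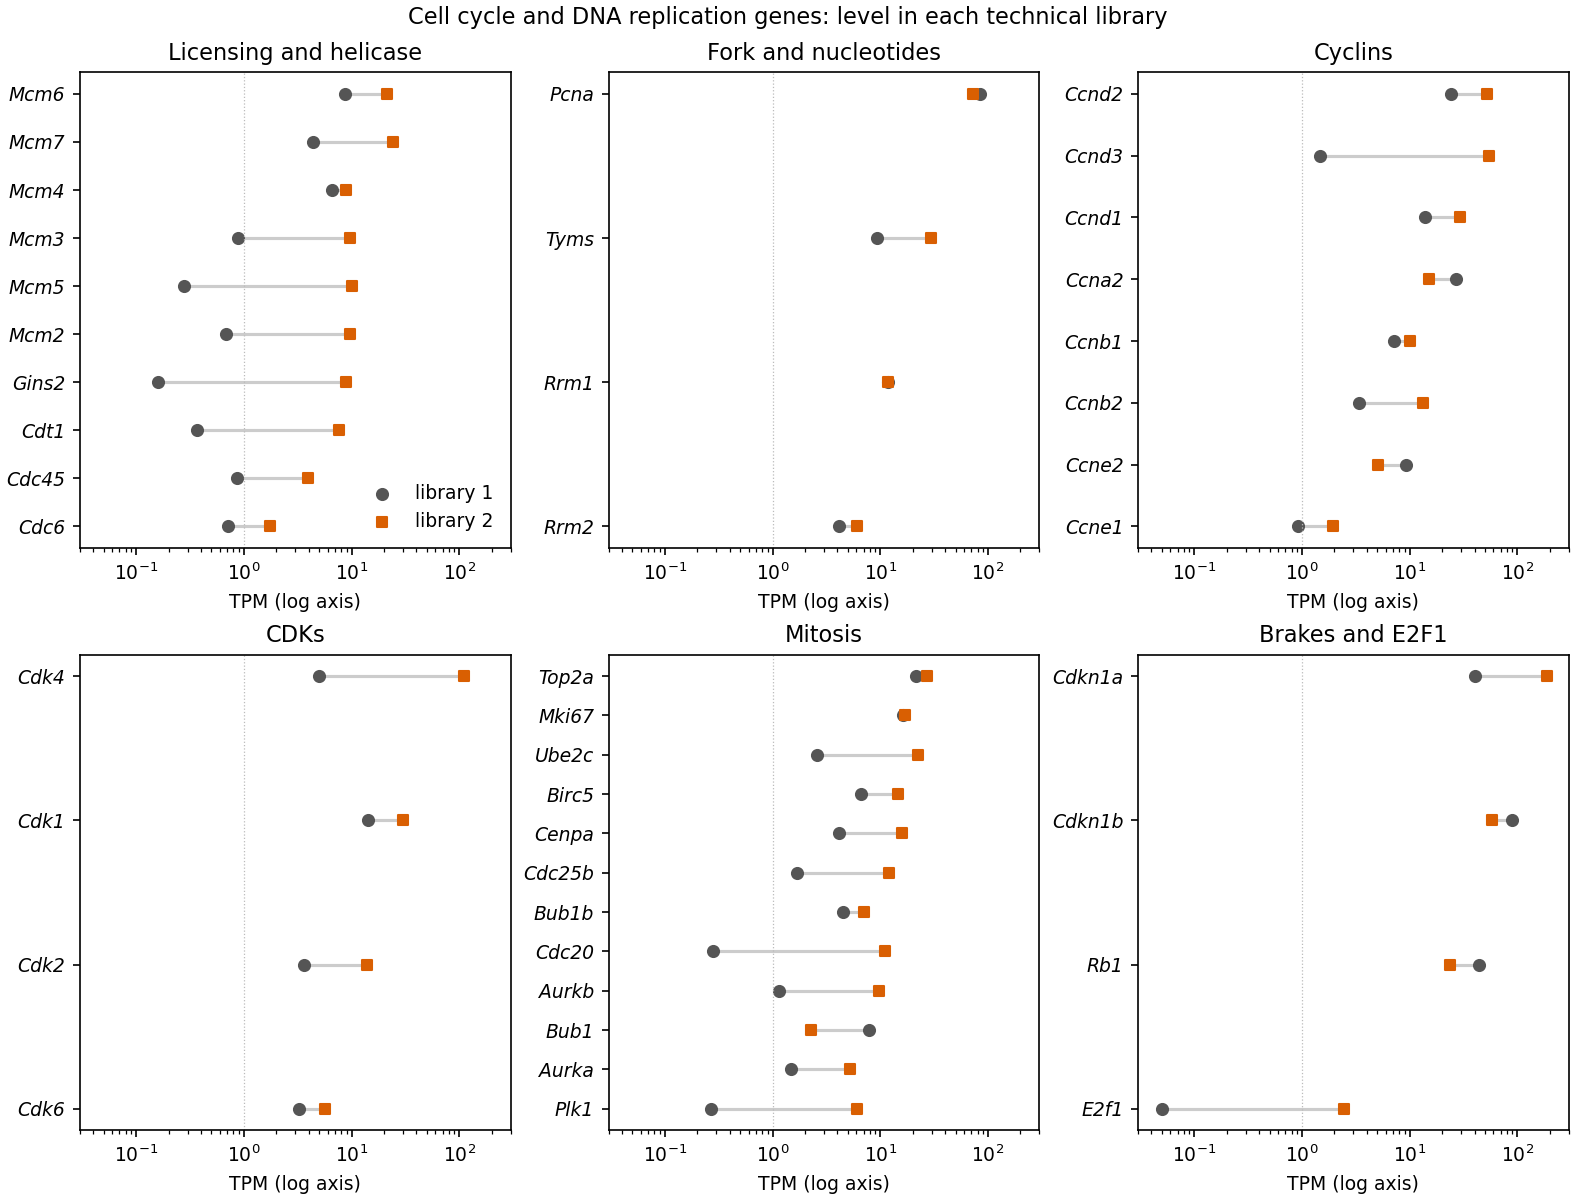
Level of each of the 43 genes in TPM on a log axis, 1 panel per role, with a grey circle for library 1 and an orange square for library 2; the dotted line marks 1 TPM and Cdkn2a, at 0 in both, is not drawn. Licensing genes such as Mcm5 (0.28 and 10.0 TPM) lie far apart, while Pcna (83.6 and 72.8 TPM), Rrm1 and Mki67 lie close together.

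The licensing and helicase genes were low in library 1 and higher in library 2. They summed to 23.6 and 106 TPM (64.9 ± 58.4, SD, n = 2 technical libraries), and in nuclear TPM to 75.4 and 141. Mcm2 to Mcm7 encode the 6-subunit ring that unwinds DNA at the fork, and its subunits assemble in equal number. Mcm6 (ENSMUSG00000026355.7, chromosome 1, 128331590 to 128359664, GRCm38) was at 8.74 and 21.5 TPM. Mcm7 (ENSMUSG00000029730.12, chromosome 5, 138164583 to 138172422) was at 4.42 and 24.2 TPM, and Mcm4 was at 6.52 and 8.80 TPM. These 3 subunits were the most abundant in library 1. The other 3 were under 1 TPM there: Mcm3 was at 0.88 and 9.73 TPM, Mcm2 at 0.68 and 9.60 TPM, and Mcm5 (ENSMUSG00000005410.5, chromosome 8, 75109569 to 75128439) at 0.28 and 10.0 TPM. The most abundant subunit exceeded the least abundant 31.2-fold in library 1 and 2.75-fold in library 2, so the subunits were far more even in library 2.

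The factors that load and fire the helicase showed a like spread. Cdt1, which loads the Mcm ring onto origins, was at 0.37 and 7.65 TPM, and its partner Cdc6 was at 0.72 and 1.74 TPM. Cdc45 and Gins2, which join the ring to form the active helicase, were at 0.86 and 3.98 TPM and at 0.16 and 8.97 TPM. All 4 were under 1 TPM in library 1 and above it in library 2. They rest on few reads: Cdt1 had 18 and 221 counts, Gins2 13 and 103, Cdc45 25 and 96, and Cdc6 48 and 77. The effective length of Gins2, by which TPM divides, was 3473 bases in library 1 and 799 in library 2. Its TPM therefore lies further apart than its scaled counts, which differed 5.69-fold. A count of 0 would allow up to 3 counts, or 0.116 and 0.145 CPM (counts scaled to library size), and these limits cover counting error only.

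The fork and nucleotide group held the most abundant replication gene. Pcna, the sliding clamp that tethers DNA polymerase (ENSMUSG00000027342.10, chromosome 2, 132249162 to 132253314), was at 83.6 and 72.8 TPM (78.2 ± 7.66), at percentiles 96.6 and 91.8. Pcna made up 63.0% of the summed TPM of the 14 replication genes in library 1 and 32.1% in library 2. Rrm1, the large subunit of ribonucleotide reductase, was at 11.9 and 11.8 TPM, and Rrm2, its cell-cycle-regulated small subunit, was at 4.18 and 6.12 TPM. Tyms, thymidylate synthase, was at 9.41 and 29.9 TPM, on 343 and 405 counts and effective lengths of 1514 and 943 bases. The group summed to 109 and 121 TPM (115 ± 8.13), the closest pair of the 6 groups, but in nuclear TPM it summed to 348 and 160.0.

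By the mean over both libraries, the 3 D-type cyclins were the most abundant, while in library 1 Ccna2 was the highest cyclin. That rank is of the whole gene. The coding Ccna2-201 was at 15.6 and 14.5 TPM, below Ccnd2 in library 1, and the processed transcript Ccna2-204 at 11.1 and 0.57 TPM. Ccnd2 (ENSMUSG00000000184.9, chromosome 6, 127125162 to 127152193) was at 24.4 and 52.2 TPM and Ccnd1 at 13.8 and 29.6 TPM. Ccnd3 (ENSMUSG00000034165.12, chromosome 17, 47505051 to 47599691) was at 1.46 and 54.8 TPM. In each library Ccnd2 was above Ccnd1, while Ccnd3 was the lowest D cyclin in library 1 and the highest in library 2. Of their sum, 39.6 and 137 TPM, Ccnd2 made up 61.5 and 38.2%, Ccnd1 34.9 and 21.7%, and Ccnd3 3.68 and 40.1%. Ccna2, of S phase and G2, was at 26.8 and 15.1 TPM, and the mitotic cyclins Ccnb1 and Ccnb2 were at 7.21 and 10.0 TPM and at 3.38 and 13.3 TPM. Of the cyclins E, which start S phase, Ccne2 was at 9.18 and 5.08 TPM and Ccne1 at 0.92 and 1.95 TPM. Ccna2 and Ccne2 were the only cyclins with less TPM in library 2. The 8 cyclins summed to 87.1 and 182 TPM (135 ± 67.1), and in nuclear TPM to 278 and 242.

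Of the kinases, Cdk4 (ENSMUSG00000006728.8, chromosome 10, 127063534 to 127067920), the partner of D cyclins, was at 4.94 and 110.2 TPM. Cdk6, which shares that role, was at 3.23 and 5.66 TPM, so the ratio of Cdk4 to Cdk6 was 1.53 in library 1 and 19.5 in library 2. By TPM, Cdk4 was above Cdk6 in both libraries, but in library 1 it had fewer counts, 151 against 220. Coding transcripts held 10.8 and 39.2% of the TPM of Cdk4, and its effective length was 1270 and 861 bases. The order and the ratios are therefore those of all its transcripts, not of coding ones. Cdk1, the mitotic kinase, was at 14.2 and 29.7 TPM, and Cdk2, of S phase, at 3.60 and 13.8 TPM. The 4 kinases summed to 25.9 and 159 TPM (92.7 ± 94.4), and Cdk4 made most of that sum in library 2.

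**Figure D2:**
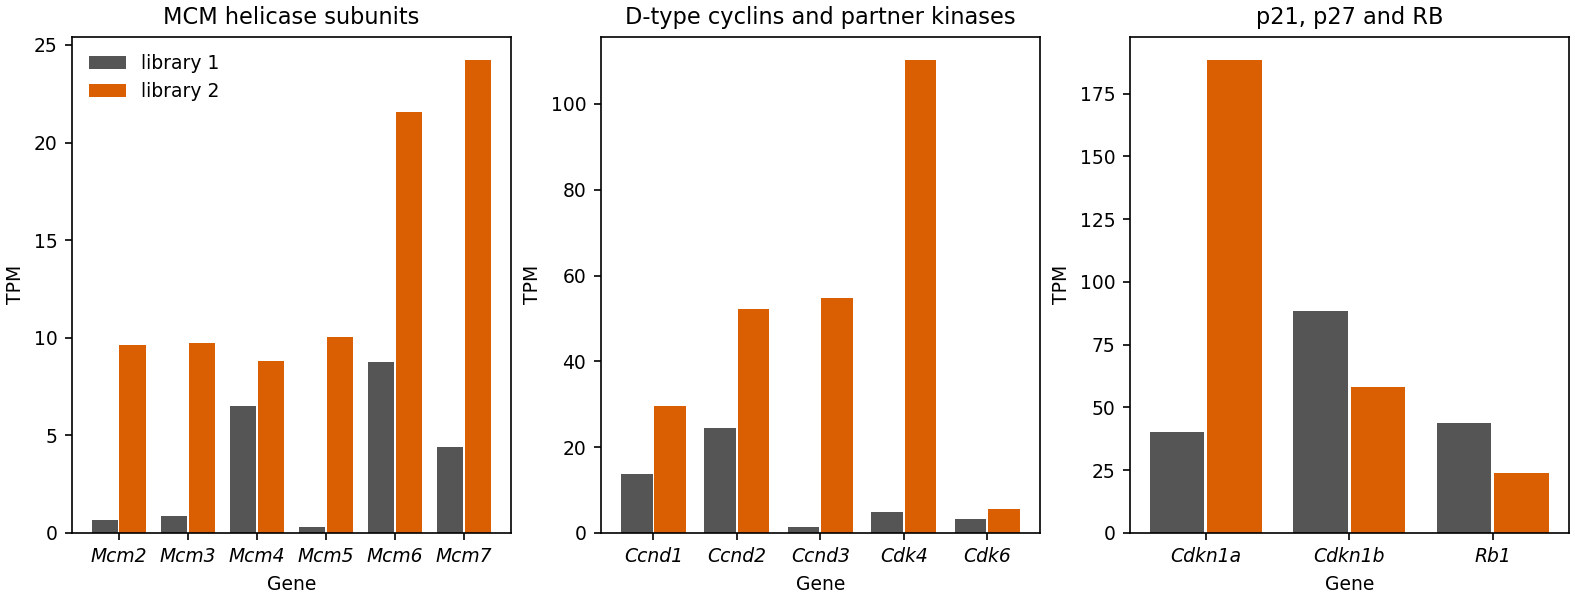
Bars give the level in TPM, on a linear axis from 0, of the Mcm subunits, the D cyclins with their kinases, and the brakes Cdkn1a, Cdkn1b and Rb1, in library 1 (grey) and library 2 (orange), 1 value per bar and no error bar. Ccnd3, Cdk4 and Cdkn1a stand higher in library 2, and Cdkn1b (88.6 and 58.3 TPM) and Rb1 (43.9 and 23.7 TPM) stand lower.

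Top2a was the most abundant mitotic gene in both libraries, followed by the proliferation marker Mki67 in library 1 and by Ube2c in library 2. Mki67, which coats mitotic chromosomes (ENSMUSG00000031004.7, chromosome 7, 135689784 to 135716361), was at 16.1 and 16.8 TPM (16.4 ± 0.488), and Top2a, the topoisomerase that untangles replicated DNA (ENSMUSG00000020914.13, chromosome 11, 98992943 to 99024189), was at 21.5 and 26.9 TPM. Together they made up 55.2% of the mitosis group's TPM in library 1 and 29.1% in library 2. Ube2c and Cdc20, which work with the anaphase-promoting complex, were at 2.56 and 22.4 TPM and at 0.28 and 11.2 TPM. Of the kinases, Aurkb was at 1.14 and 9.79 TPM, Aurka at 1.47 and 5.25 TPM, and Plk1 at 0.27 and 6.05 TPM. All 5 had less TPM in library 1. The checkpoint kinase Bub1 was at 7.85 and 2.28 TPM, the only mitotic gene with less TPM in library 2, while its relative Bub1b was at 4.55 and 7.05 TPM. Cenpa, the centromeric histone, was at 4.15 and 16.0 TPM, Birc5 (survivin) at 6.59 and 14.5 TPM, and the phosphatase Cdc25b at 1.67 and 12.1 TPM. The 12 genes summed to 68.2 and 150.4 TPM (109 ± 58.1), and in nuclear TPM to 218 and 199.6.

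Replication and mitosis were also compared within a library, where its scale cancels. The 14 replication genes summed to 1.95 times the mitosis group in library 1 and 1.51 times in library 2 by TPM. By CPM, without length correction, these ratios were 0.737 and 1.10, and without Pcna they were 0.720 and 1.02 by TPM. In library 1, which group was larger therefore depended on the unit and on Pcna. In library 2 the replication genes were the larger group in each case, though only slightly so without Pcna.

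The brakes were the most abundant group and summed to 173 and 273 TPM (223 ± 70.6), and in nuclear TPM to 551 and 362. Cdkn1a (ENSMUSG00000023067.9, chromosome 17, 29090976 to 29100727) was at 40.3 and 188 TPM. Cdkn1b (ENSMUSG00000003031.10, chromosome 6, 134920401 to 134925513) was at 88.6 and 58.3 TPM (73.4 ± 21.4), and Rb1 was at 43.9 and 23.7 TPM (33.8 ± 14.3). The order of the p21 and p27 genes was opposite in the 2 libraries, with a ratio of Cdkn1b to Cdkn1a of 2.20 in library 1 and 0.310 in library 2. E2f1, which activates S-phase genes, was at 0.05 and 2.45 TPM on 3 and 90 counts. Cdkn2a, the locus of p16 and of the p53 activator Arf (chromosome 4, 89274471 to 89294653), had 0 counts for both of its transcripts in both libraries, which allows up to 0.182 and 0.301 TPM.

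Scaled counts were then compared between the libraries. Each gene's counts were given to a two-sided exact binomial test with library sizes scaled by the trimmed mean of M values (TMM), adjusted by Benjamini-Hochberg over 15705 genes, and calling a gene took both an adjusted p under 0.05 and a difference of 2-fold or more. The test compares these libraries, not conditions. Taken as replicates, the 2 libraries had a common coefficient of variation beyond counting error of 97.7%. The p-values and intervals below leave this spread out. Of the 43 genes, 42 entered and Cdkn2a did not; 17 were called higher in library 2 (40.5%), 9 lower (21.4%) and 16 neither. Of all genes tested, 36.9% were called higher and 28.1% lower, so these shares lie near the background and are not a result about division genes. The median log2 ratio was 0.53 over the 42 genes and 0.12 over all genes. Scaled by total counts, 47.7% of all genes were called higher and 11.7% lower, and by the ratio of deposited TPM 53.6% and 4.81%, with 23 and 28 of these genes higher and 4 and 1 lower.

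**Figure D3:**
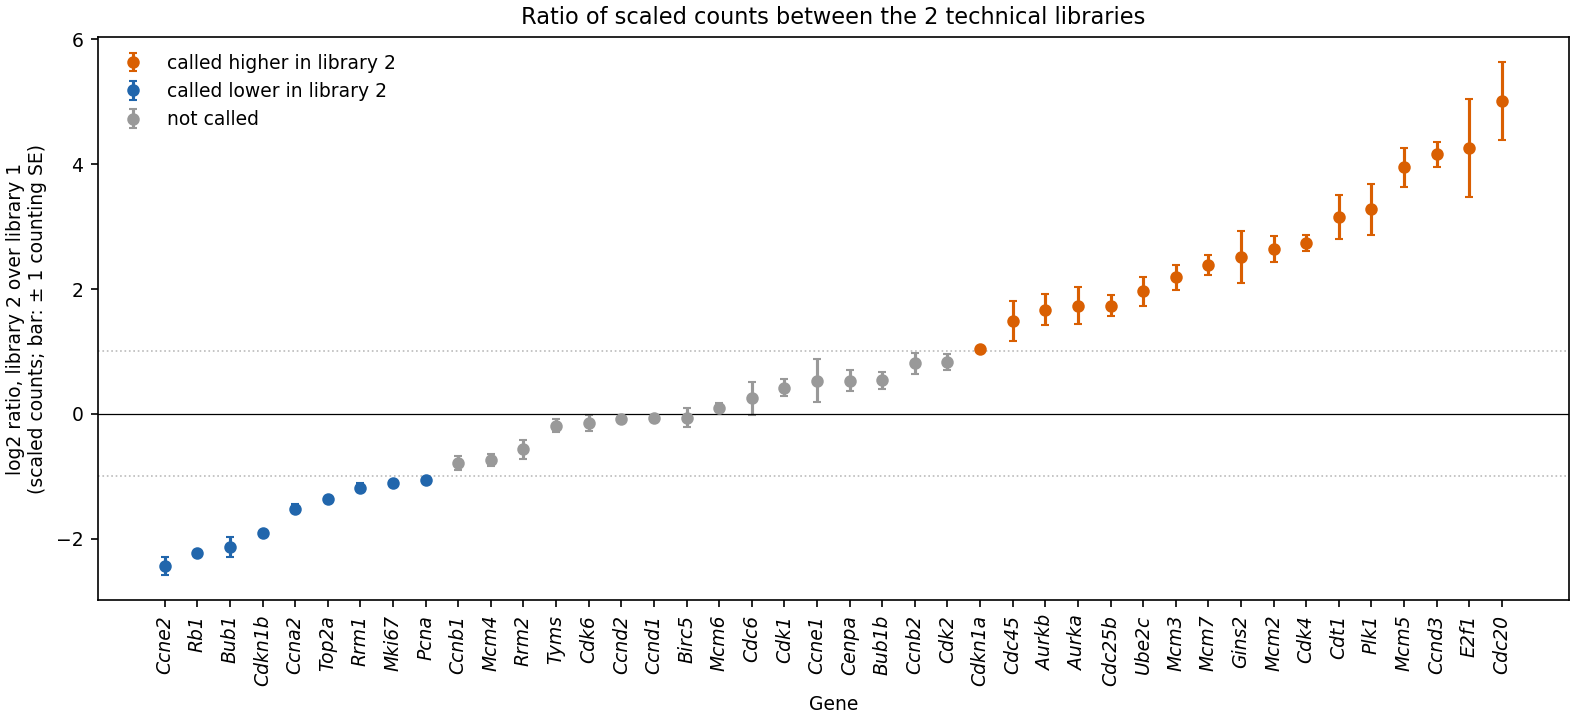
Log2 ratio of library 2 over library 1 from TMM-scaled counts for the 42 tested genes, sorted, with bars of 1 counting SE either way. Colours give the call (orange called higher in library 2, blue called lower, grey not called), and dotted lines mark 2-fold in each direction. The ratios run from -2.44 for Ccne2 to 5.01 for Cdc20, with the widest bars on genes of few counts such as E2f1.

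By role the calls were uneven, beside 36.9% of all genes called higher and 28.1% lower. The roles also differed in GC content, described below. The licensing median was 51.9% GC, and between 50 and 55% GC 53.7% of all genes were called higher. For fork and nucleotide genes the median was 45.3%, and between 45 and 50% GC 23.6% of all genes were called lower. Of the 10 licensing and helicase genes 7 were called higher and 0 lower, with a median log2 ratio of 2.29. Mcm5, with 22 and 467 counts, was 15.4-fold higher (95% exact interval 10.3 to 25.4; adjusted p 9.29e-83, exact binomial test), and Cdt1 had a log2 ratio of 3.15 ± 0.35 (counting SE). Mcm2, Gins2, Mcm7, Mcm3 and Cdc45 had 2.64, 2.51, 2.39, 2.19 and 1.49, and the uncalled Mcm6, Cdc6 and Mcm4 had 0.10, 0.25 and -0.74. Cdt1, Gins2, Mcm2, Mcm3, Mcm5 and Mcm7 were also called higher by each other scaling of the counts or TPM, and Cdc45 was not by the ratio of nuclear protein-coding TPM. With a GC trend taken off, as described below, Cdt1 was called lower (-1.16) and Gins2 (-0.21) and Mcm2 (-0.037) were not called. Of the 4 fork and nucleotide genes 0 were called higher and 2 lower, Pcna at -1.06 ± 0.05 and Rrm1 at -1.18 ± 0.07, calls that were not made with total counts or with deposited TPM. Rrm2 had -0.57 and Tyms -0.19.

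Among cyclins Ccnd3 was called higher, at 4.16 ± 0.20, and Ccne2 and Ccna2 lower, at -2.44 ± 0.14 and -1.52 ± 0.07. The remaining 5 lay between -0.79 (Ccnb1) and 0.81 (Ccnb2). Cdk4 was the 1 kinase called, at 2.74 ± 0.12, with Cdk2 at 0.83, Cdk1 at 0.42 and Cdk6 at -0.15. The D-cyclin partner Cdk4 and the D cyclin Ccnd3 were thus called together, while Ccnd1 and Ccnd2, both at -0.07, were not called, and by total counts or deposited TPM their ratios were above 0.

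Mitotic genes were called in both directions. Higher were Cdc20, with 5 and 238 counts (32.2-fold, interval 14.9 to 109.9), Plk1 at 3.28, Ube2c at 1.96, Cdc25b and Aurka at 1.73 and Aurkb at 1.67. Lower were Bub1 at -2.14 ± 0.16, Top2a at -1.37 ± 0.05 and Mki67 at -1.11 ± 0.04. Mki67 and Top2a had near-equal or higher TPM in library 2, and by that scale their ratios were 0.06 and 0.32, so their direction depended on the scale; Bub1 was lower on both. The uncalled Bub1b, Cenpa and Birc5 had 0.54, 0.53 and -0.06. Among the brakes Cdkn1a was just past 2-fold (1.04 ± 0.04) and was not called with DESeq2 size factors or by nuclear TPM. Rb1 (-2.23 ± 0.05) and Cdkn1b (-1.91 ± 0.03) were called lower. Of the 9 lower calls, that of Bub1 alone was also made by deposited TPM. E2f1 rested on 3 and 90 counts, a ratio of 19.2 with an interval of 7.38 to 110.1 (adjusted p 7.34e-18, exact binomial test).

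The ratios followed GC content, the percent of G and C bases in the transcripts. Over the 42 genes, whose GC content ran from 37.5 to 58.8%, Spearman's rho between GC and log2 ratio was 0.93 (Pearson's r 0.91), and over 15658 genes it was 0.90 (0.84). These describe genes that share 2 libraries and are not independent replicates. Below 45% GC, 0 of 9 genes were called higher and 8 lower, against 0.267% and 87.8% of all genes there. Between 45 and 50% the calls were 1 higher and 1 lower of 13, against 4.41% and 23.6% of all genes, and between 50 and 55% they were 9 and 0 of 13, against 53.7% and 2.37%. At 55% or more, 7 of 7 were called higher, against 93.5% of all genes. The roles differed in GC as well: the median was 51.9% for licensing genes, 45.3% for fork and nucleotide genes, 48.2% for cyclins, 48.9% for kinases, 50.9% for mitosis and 49.5% for the 4 tested genes of the brakes and E2f1. Role and GC content vary together, so their parts in a group's ratio cannot be told apart.

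**Figure D4:**
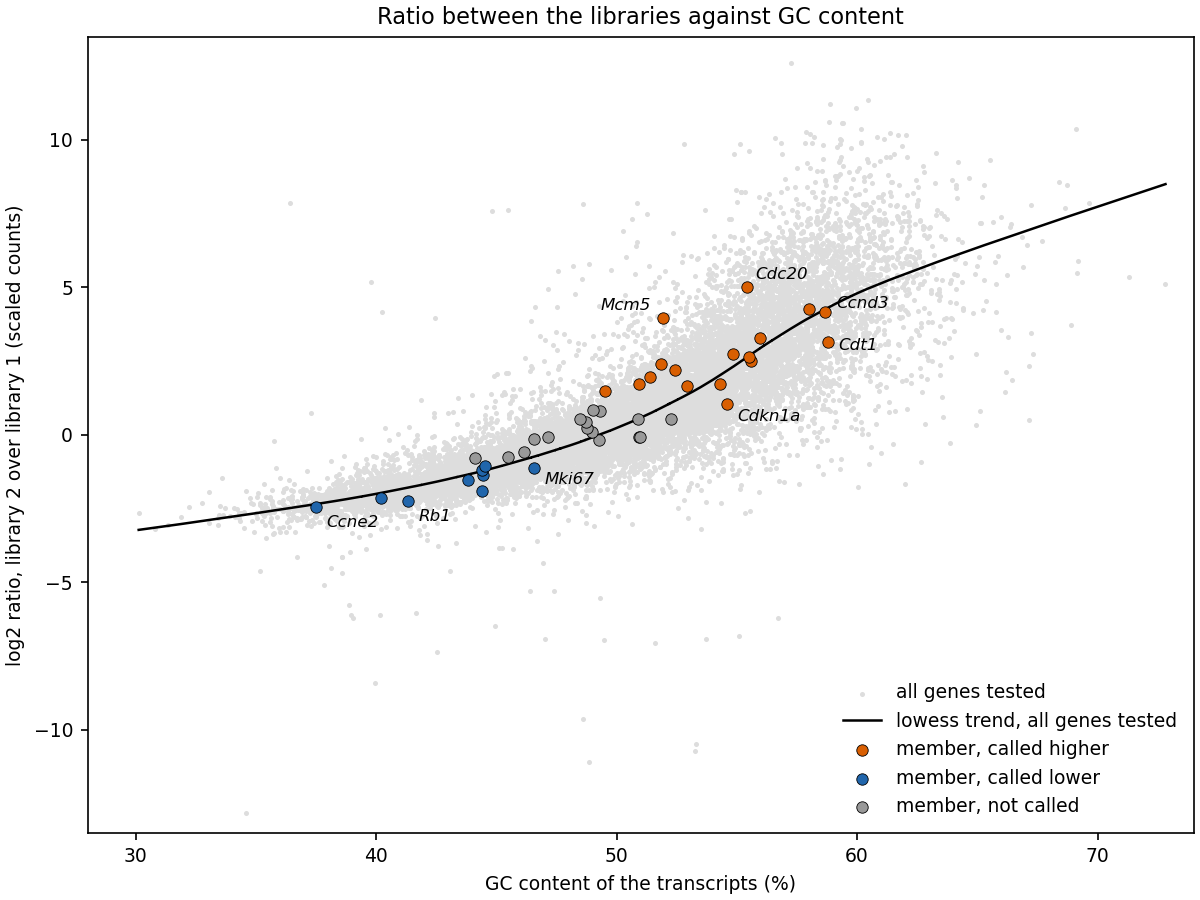
Log2 ratio of library 2 over library 1 against GC content in percent, with all tested genes in light grey and a lowess trend as a black line. The 42 genes are outlined points coloured by call (orange called higher in library 2, blue called lower, grey not called). The genes run along the trend, from Ccne2 at 37.5% GC and -2.44 to Cdt1 at 58.8% and 3.15, with Mcm5 and Cdc20 above the line.

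With the lowess trend on GC taken off, 7 of the 42 genes were called higher and 2 lower, against 12.3% and 11.0% of all genes, and 33 lay within 1 log2 unit of the trend. The 7 were Mcm5 (3.0), Cdc20 (2.38), Mcm7 (1.47), Cdc45 (1.41), Ube2c (1.23), Aurka (1.18) and Mcm3 (1.04). Each was also called higher without this step, and 4 are helicase genes. The 2 below the trend were Cdt1 (-1.16) and Cdkn1a (-1.13), both called higher without it. Ccnd3, E2f1, Plk1 and Cdk4 came to -0.11, 0.29, 0.33 and 0.42, and Ccne2, Bub1, Rb1 and Pcna to -0.08, -0.16, -0.44 and 0.14. Thus most ratios lay within 2-fold of the trend for genes of the same GC content, and Mcm5 and Cdc20 kept the largest excess.

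The transcripts behind several of these genes also differed between the libraries. Of 33 genes at a mean of 5 TPM or more, 26 had several transcripts, and the most abundant one was the same in both libraries for 16 and different for 10. Cdc20 shifted from Cdc20-203, annotated as a target of nonsense-mediated decay (85.1% of the gene in library 1 and 0% in library 2), to the coding Cdc20-201 (14.9 and 89.9%). The 5 counts of library 1 carry that first share. Cdk4 shifted from the retained-intron Cdk4-207 (54.0 and 9.51%) to the transcript Cdk4-205 (0 and 24.6%). Cdk1 shifted from the retained-intron Cdk1-204 (52.9 and 40.0%) to the coding Cdk1-202 (18.4 and 58.5%). The leading transcript was of a type other than protein-coding for 5 genes in library 1 and 2 in library 2. Tyms was led by such a type in both, Tyms-202 with 36.6% in library 1 and Tyms-205 with 56.1% in library 2, and its coding transcripts held 17.3 and 6.82%. Pcna-201 led in both, with 68.6 and 96.1%, as did Cdkn1a-201, with 100 and 97.3%. Levels per gene are therefore not all levels of coding messenger RNA.

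Reads of some genes may have been shared with neighbours or copies. The strand setting of the counting is not given in the sources used here, and without strand reads of a gene and its antisense partner cannot be told apart. Exons of 17 of the 43 genes overlap a gene on the other strand, and 3 by at least 20%: Gins2 by 67.3% with Gse1 (301 and 2838 counts), Ccnd1 by 23.4% with LTO1 (85 and 496 counts) and Ube2c by 22.8% with Tnnc2 (0 counts in both). Cdk4 overlaps Tspan31 by 19.7% (423 and 1034 counts) and Ccne2 overlaps Ints8 by 17.4% (1863 and 632 counts). In these 2 pairs the partner had more counts in the same library as the gene, as Gse1 did with Gins2, and its part in the ratios was not tested. At least 5% of the 31-base words of 8 genes occur in processed pseudogenes, 24.4% for Mcm7, 23.4% for Cdc20, 23.3% for Pcna and 22.9% for Ccnb1. The pseudogenes that the tables list had at most 14.3 counts, so few reads were assigned to them.

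Other genes of the same pathways, in 5 lists, were called in both directions on the TMM scale as well. Their calls also ran with GC content, as those of all genes did. Below 45% GC, 0 of 41 genes over all 5 lists were called higher and 38 lower (92.7%), against 87.8% of all genes lower. At 55% or more, 19 of 21 were higher (90.5%) and 0 lower, against 93.5% of all genes higher. These shares lie near the background and are not a result about the lists. In the replication list 13 of 42 genes were called higher and 16 lower (30.95 and 38.1%, against 36.9 and 28.1% of all genes; median log2 ratio -0.26). It summed to 384 and 480 TPM but in nuclear TPM to 1226 and 637, the opposite direction. Its most abundant member was Orc4 of the origin recognition complex, at 91.8 and 29.6 TPM (-2.57, called lower). It was followed by Slbp, which binds histone messages, at 47.9 and 40.6 TPM (-1.47, called lower), and by Rpa3, of the single-strand binding complex, at 36.0 and 32.1 TPM (-1.31, called lower). Orc3 was at 30.2 and 20.7 TPM (-1.64, called lower), and the licensing inhibitor Gmnn was at 15.2 and 21.4 TPM (-0.23, not called). The most abundant replication genes were thus mostly lower in scaled counts. The largest rises were in the DNA polymerase delta subunits Pold1, with 1 and 338 counts (ratio 168, interval 44.7 to 9943), and Pold2, with 3 and 370 counts (ratio 78.6, interval 31.1 to 446), and in thymidine kinase Tk1, with 9 and 257 counts. The other large falls were Orc2 (-1.97) and the polymerase alpha subunit Pola1 (-1.85).

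In the mitosis list 15 of 54 genes were called higher and 23 lower (27.8 and 42.6%, against 36.9 and 28.1% of all genes; median -0.62). It summed to 357 and 454 TPM but in nuclear TPM to 1138 and 602, so the direction of the sum depended on the scale. Cks2, a CDK-binding subunit, was at 64.3 and 50.3 TPM (-1.50), and the condensin subunit Smc4 at 55.3 and 20.98 TPM (-2.59). Pttg1 (securin), which restrains separase, was at 13.3 and 56.5 TPM (0.73, not called). The checkpoint gene Bub3 was at 5.63 and 31.7 TPM (1.33) and Mad2l1 at 19.7 and 11.7 TPM (-1.94). Checkpoint genes were thus called in opposite directions. The largest rises were in Mad1l1, with 2 and 262 counts (ratio 78.0, interval 26.7 to 807), the kinesin Kifc1, with 2.6 and 159.7 expected counts (ratio 34.1, interval 13.3 to 194), and separase, Espl1, with 5 and 194 counts. Ncapg (-2.35) and Spc25 (-2.34) fell with Smc4.

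Of 18 E2F, pocket protein and MuvB genes, 6 were called higher and 6 lower (33.3% each, against 36.9 and 28.1% of all genes, median -0.62). The sum was 192 and 298 TPM but 612 and 395 in nuclear TPM. Rbbp4, the histone-binding subunit, was at 47.3 and 41.9 TPM (-0.69, not called), and the E2F partners Tfdp2 and Tfdp1 were at 31.7 and 24.5 TPM (-1.06) and at 4.86 and 42.0 TPM (1.94). These 2 partners were called in opposite directions. The pocket protein gene Rbl2 was at 20.4 and 25.8 TPM (-0.94, not called) and E2f5 at 24.7 and 20.2 TPM (-1.45). E2f4 had 58 and 1009 counts (3.68), Lin37 7 and 261 (4.69) and Mybl2 7 and 140 (3.8), while Lin54 (-1.90), Rbl1 (-1.66) and Lin9 (-1.60) fell. The MuvB subunits Lin37, Lin9 and Lin54 were named for their extreme ratios, and another, Lin52, was also called lower (-1.29). Their GC content (the percent of G and C bases) was 56.4% for Lin37, 40.5% for Lin9 and 41.3% for Lin54. With the GC trend taken off, Lin37 was called higher (1.52), and Lin9 (0.32), Lin54 (-0.11) and Lin52 (-0.037) were not called.

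The 5 other CDK inhibitors were each below Cdkn1a and Cdkn1b in both libraries. They summed to 29.04 and 81.0 TPM, with 1 called higher, Cdkn2d (2.23 and 12.0 TPM, 1.26), and 0 lower, against 36.9 and 28.1% of all genes. Cdkn2b, the p15 gene beside Cdkn2a, was measured at 13.6 and 48.2 TPM (0.67) although Cdkn2a was at 0. Cdkn2c was at 3.95 and 9.73 TPM, Cdkn1c at 4.83 and 6.07 TPM and Cdkn3 at 4.48 and 5.04 TPM. Of 13 genes of p53 and its targets, which include regulators known to act with Cdkn1a, 8 were called higher and 1 lower (median 2.66). These were 61.5 and 7.69%, against 36.9 and 28.1% of all genes (median 0.12). With the GC trend taken off, 1 was called higher and 0 lower, against 12.3 and 11.0% of all genes. The 1 called lower on the TMM scale was Ccng1, a p53 target, at 91.1 and 52.8 TPM (-1.96). Btg2, an antiproliferative gene, was at 23.1 and 104 TPM (1.01). Gadd45a was at 25.5 and 59.0 TPM (-0.02) and the p53 inhibitor Mdm2 at 18.1 and 23.1 TPM (-0.85). Bax, of cell death, had 6 and 511 counts, and Bbc3 and Gdf15 had 2 and 197 (ratio 58.7, interval 19.98 to 608) and 1 and 62 (ratio 30.9, interval 7.96 to 1847). With the GC trend taken off, 7 of 42 genes of the replication list were called higher and 1 lower, 12 and 0 of 54 in the mitosis list, 3 and 2 of 18 in the E2F list and 1 and 2 of 5 CDK inhibitors, against 12.3% and 11.0% of all genes.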

How the data were processed

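Polyadenylated RNA was sequenced in 2 technical libraries of 1 mouse. The authors deposited expected counts (estimated counts) per gene and transcript, with TPM values beside them, per the file headers, on mm10 with GENCODE M4. Each transcript's percent of its gene's TPM and a posterior SD of each count are also the authors', per the file headers. The posterior SD was above 0 for 2 of the 43 genes. The aligner and quantifier were not given in the sources used here. The gene name table matched 42462 of 43346 genes. Positions, transcript types, GC content and antisense overlaps came from GENCODE M21 on GRCm38, and promoters from RefSeq.

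Expected counts were rounded for tests. Genes with a mean count of at least 10 entered a two-sided exact binomial test with TMM sizes (edgeR 4.0.16, R 4.3.3), adjusted by Benjamini-Hochberg. With 1 library a side, edgeR's quasi-likelihood test has no residual degrees of freedom. Ratios used a prior count of 0.5, and SEs and exact 95% Clopper-Pearson intervals cover counting only. The lowess trend used a fraction of 0.2 (statsmodels 0.14.6, scipy 1.17.1, Python 3.11.15). Ratios of TPM used a pseudocount of 0.1. The script was tested on simulated data. Alternatives were DESeq2 1.42.0 size factors, total counts, other filters, GC and length trends, an edgeR exact test with an assumed coefficient of variation of 0.1, and TPM ratios. The assumed value was far below the common coefficient of variation of 97.7% that edgeR gave with the 2 libraries taken as replicates.

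All 43 genes are named, and in each other list the 5 with the highest mean TPM and the 3 largest called ratios each way. Lin52 is named besides, as a further MuvB subunit. The genes and lists were chosen with earlier results of these data known. Protein sequences were not analysed here. The result of 1 marker list is not reported here.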

Additional observations from a re-analysis of the deposited data

How the results depend on the processing

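No paired analysis was possible because both libraries are of 1 mouse in 1 group. Leaving out 1 library leaves no ratio, and the sums then range from 23.6 to 106 TPM (licensing), 109 to 121 (fork), 87.1 to 182 (cyclins), 25.9 to 159 (kinases), 68.2 to 150.4 (mitosis) and 173 to 273 (brakes), and the replication to mitosis ratio, 1.73 on average, from 1.51 to 1.95; it was 0.919 from CPM. Over nuclear protein-coding genes the mean sums were 254 (fork), 259.8 (cyclins), 209 (mitosis) and 457 TPM (brakes). The 17 genes called higher became 7 with the GC trend off and 28 by deposited TPM, and the 9 lower became 4 by total counts, 2 with the GC trend off and 1 by deposited TPM. Over all genes, 5795 higher became 1933 with the GC trend off, and 4414 lower became 1834 by total counts, 1715 with the GC trend off and 755 by deposited TPM. The median ratio over all genes was 0.12 with TMM, 0.87 by total counts and 1.18 by deposited TPM. Signs of log2 ratios changed as follows. With the GC trend off: Pcna 0.14, Mcm2 -0.037, Mcm4 0.26, Cdt1 -1.16, Gins2 -0.21, Rrm1 0.053, Rrm2 0.27, Ccnb1 0.50, Ccnd2 0.52, Ccnd3 -0.11, Ccne1 -0.55, Cdk6 0.59, Cdc25b -0.30, Cenpa -0.0037 and Cdkn1a -1.13. With a length trend off: Mcm6 -0.064, Ccnb2 -0.14, Ccnd1 0.0038, Ccnd2 0.31, Ccne1 -0.28, Cdk1 -1.13 and Cenpa -0.78. By total counts: Mcm4 0.013, Rrm2 0.18, Tyms 0.56, Ccnd1 0.68, Ccnd2 0.68, Cdk6 0.60 and Birc5 0.69. By deposited TPM: Mki67 0.060, Top2a 0.32, Mcm4 0.43, Rrm2 0.54, Tyms 1.66, Ccnb1 0.47, Ccnd1 1.09, Ccnd2 1.10, Cdk6 0.79 and Birc5 1.13. By nuclear protein-coding TPM: Tyms 0.40, Ccne1 -0.18, Cdk1 -0.19 and Bub1b -0.63, and with a pseudocount of 1 Tyms 0.39, Ccne1 -0.13, Cdk1 -0.19 and Bub1b -0.58. Without the low-count filter: Birc5 0.0028. The causes were not tested. DESeq2 size factors and a minimum mean count of 50 changed no sign. The edgeR exact test was read with the same ratios as the main test, so it could change no sign. Depth limits 18 of the 43 genes in library 1 and 5 in library 2, which had under 100 counts.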
